A study of Homo sapiens with 38 samples.

Results

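A set of 376 promoters was occupied by DPPA2 and DPPA4 in the lung cancer line H1299 but carried no called peak of either protein in parental cells of the lung cancer line H661. These were selected on measured values from 19970 promoters of protein-coding genes (1500 bp either side of the start site, TSS). A promoter was kept when a broad enriched domain, called by EPIC2 against IgG, touched it in both DPPA2 libraries and both DPPA4 N-terminal libraries of H1299, and when no narrow MACS2 peak of DPPA2 or of either the N-terminal or the ab154642 antibody to DPPA4 touched it in parental H661. All 4 H1299 domains were present at 6115 promoters (30.6% of all), so the 376 made up 6.15% of these and 1.88% of all promoters. Another 4610 had the same 4 domains with a parental H661 peak of both DPPA2 and DPPA4 N-terminal; these are called shared below. A further 1129 had a peak of only some H661 antibodies, and 6063 promoters had none of the domains or peaks the rule uses in either line.

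DPPA2 and DPPA4 are partner proteins of early embryos and pluripotent cells that bind CpG-rich promoters, where in embryonic stem cells they keep developmental genes poised. RING1B is the ubiquitin ligase of Polycomb repressive complex 1, PCGF1 marks a variant of that complex that is recruited to unmethylated CpG islands, and MTF2 is a DNA-binding accessory subunit of Polycomb repressive complex 2. EP300 is an acetyltransferase of histone H3 found at active enhancers and promoters.

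Chromatin was profiled by CUT&RUN, in which an antibody-tethered nuclease cuts out the DNA next to a protein, from 500000 cells per reaction. The H1299 cells, which do not express DPPA2 or DPPA4 themselves, carried doxycycline-inducible Flag-DPPA2 and V5-DPPA4 and were given 2 µg/mL doxycycline for 7 days; 6 antibodies with 2 replicates each gave 12 libraries, and no H1299 library without doxycycline was analysed here. Parental H661 cells, which express both proteins, were profiled with 1 library for each of 4 DPPA antibodies. Derived H661 lines with an inducible hairpin against DPPA4 (shDPPA4) or against DPPA2 and DPPA4 (shDPPA2+4) were profiled after 7 days of doxycycline or water, with 1 library per antibody and arm, the water arm being the control. All engineered lines were made by PiggyBac transposition and sorted as bulk populations, not clones, and the expressed proteins were driven by a tetracycline-responsive promoter rather than by their own genes. The sources do not say that replicates came from separate cultures, so the p-values below measure the spread between libraries only. The H661 libraries were single and allowed no test, and their exact 95% binomial intervals cover counting error alone.

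Libraries differed in depth as seen through the reads inside domains, which lay between 93954 and 3036587 in H1299 and between 198296 and 7049330 in H661. The second Flag monoclonal library of H1299 had the lowest, 93954 reads in 5281 domains, so values that rest on it are given with and without its antibody. Within each cell line and antibody species the libraries, doxycycline and water arms included, held the same IgG counts over identical domains and so shared their IgG control. The parental DPPA2 library had another control than the parental DPPA4 libraries.

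The label of the set, unbound in H661, did not hold under other readings of the same cells. The 4 parental libraries held an EPIC2 domain of at least 1 DPPA antibody at 184 of the 376 promoters (48.9%, against 63.8% of all promoters), and 317 (84.3%, against 72.3% of all promoters) had a DPPA4 domain in at least 1 of the hairpin control arms. The parental DPPA4 N-terminal library had 678692 reads in domains, against 6708227 and 2699987 in the shDPPA4 and shDPPA2+4 control libraries of the same antibody; the part of depth in this difference was not tested. The promoters are therefore called peakless, after the rule, rather than unbound.

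The DNA just before the start site is shown for 9 peakless promoters, chosen from the highest ranked of the groups described below among those with no exon in this stretch. Each line gives 200 bases before the TSS, 5′ to 3′ on the strand of the gene (hg38), with CpG dinucleotides in capitals. TBX18 at chr6:84764599-84764798 (minus strand), KCTD8 at chr4:44448810-44449009 (minus strand) and RFWD3 at chr16:74666878-74667077 (minus strand) were among the densest in H1299. ADAMTS3 at chr4:72569222-72569421 (minus strand) had no DPPA domain in H661 without doxycycline. RPS6KA2 at chr6:166627252-166627451 (minus strand) and RPS12 at chr6:132814369-132814568 (plus strand) carried all 4 chromatin proteins in H661. TOR4A at chr9:137277526-137277725 (plus strand) and ZNF732 at chr4:305475-305674 (minus strand) carried none of them, and S100A2 at chr1:153565845-153566044 (minus strand) stands for the CpG-poor members.
TBX18: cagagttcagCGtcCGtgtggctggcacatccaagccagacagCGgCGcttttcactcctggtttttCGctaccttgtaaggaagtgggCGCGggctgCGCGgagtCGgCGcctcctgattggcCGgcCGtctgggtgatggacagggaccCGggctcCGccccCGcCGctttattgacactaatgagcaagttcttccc
KCTD8: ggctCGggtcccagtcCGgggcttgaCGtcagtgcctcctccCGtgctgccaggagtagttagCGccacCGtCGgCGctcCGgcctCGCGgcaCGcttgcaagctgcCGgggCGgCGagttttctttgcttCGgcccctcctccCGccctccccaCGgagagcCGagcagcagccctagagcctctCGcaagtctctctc
RFWD3: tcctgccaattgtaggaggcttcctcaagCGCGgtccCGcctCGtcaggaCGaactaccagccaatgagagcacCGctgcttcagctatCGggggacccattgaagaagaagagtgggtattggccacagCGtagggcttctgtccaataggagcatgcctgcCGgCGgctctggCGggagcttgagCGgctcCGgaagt
ADAMTS3: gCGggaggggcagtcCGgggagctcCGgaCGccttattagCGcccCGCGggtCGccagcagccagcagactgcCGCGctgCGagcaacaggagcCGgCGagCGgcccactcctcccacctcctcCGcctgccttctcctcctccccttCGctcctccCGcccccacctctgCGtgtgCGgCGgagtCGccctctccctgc
RPS6KA2: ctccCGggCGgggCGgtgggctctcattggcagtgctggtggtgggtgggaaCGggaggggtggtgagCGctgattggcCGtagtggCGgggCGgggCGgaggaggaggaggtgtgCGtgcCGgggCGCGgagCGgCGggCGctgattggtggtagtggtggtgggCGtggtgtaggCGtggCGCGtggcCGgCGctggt
RPS12: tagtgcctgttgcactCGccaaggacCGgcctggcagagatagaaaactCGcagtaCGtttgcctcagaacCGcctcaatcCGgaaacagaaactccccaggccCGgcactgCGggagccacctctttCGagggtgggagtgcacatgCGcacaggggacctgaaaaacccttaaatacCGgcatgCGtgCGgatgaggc
TOR4A: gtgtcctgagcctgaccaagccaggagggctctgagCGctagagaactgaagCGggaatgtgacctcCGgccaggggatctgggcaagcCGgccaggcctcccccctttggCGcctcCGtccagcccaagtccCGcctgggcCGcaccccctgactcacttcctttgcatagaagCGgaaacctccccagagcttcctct
ZNF732: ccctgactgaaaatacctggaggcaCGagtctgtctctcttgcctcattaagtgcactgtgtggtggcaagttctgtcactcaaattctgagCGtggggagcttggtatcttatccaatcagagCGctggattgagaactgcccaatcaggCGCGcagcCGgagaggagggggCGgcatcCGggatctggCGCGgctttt
S100A2: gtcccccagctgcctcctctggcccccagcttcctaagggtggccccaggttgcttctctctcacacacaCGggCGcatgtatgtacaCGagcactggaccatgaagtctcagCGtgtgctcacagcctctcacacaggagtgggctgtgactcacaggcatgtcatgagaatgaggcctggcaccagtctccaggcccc

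These stretches held 17 CpGs in TBX18, 20 in KCTD8, 13 in RFWD3, 21 in ADAMTS3, 22 in RPS6KA2, 13 in RPS12, 9 in TOR4A, 10 in ZNF732 and 4 in S100A2. The median over all peakless promoters was 19 CpGs, against 21 at shared promoters and 15 at all promoters. RFWD3 held the letters CCGGAAG of an ETS factor site at the end of its stretch, and S100A2 and TOR4A held TGANTCA, the letters bound by AP-1.

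Peakless promoters were mostly CpG-rich, but less often so than shared promoters. CpG-rich (GC above 55% and observed over expected CpG above 0.75 within 500 bp of the TSS) described 213 of 376 peakless promoters (56.6%, 51.5% to 61.7%), 70.9% of shared promoters and 42.1% of all promoters. CpG-poor (observed over expected below 0.5) described 25 peakless promoters (6.65%), 2.04% of shared and 28.2% of all. Median observed over expected CpG was 0.787 in peakless, 0.822 in shared and 0.725 in all promoters, and median GC content was 61.8%, 66.1% and 61.3%. Counted the other way, of promoters bound in H1299, 5.13% of the CpG-rich (213 of 4155), 7.62% of those between and 16.8% of the CpG-poor (25 of 149) were peakless. These are properties of the reference sequence and carry no test.

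Short motifs were searched on both strands from 250 bases before to 50 after the TSS. The ETS letters CCGGAAG stood in 101 peakless promoters (26.9%, 22.4% to 31.6%), 17.4% of shared promoters and 14.1% of all 19970 promoters; among CpG-rich promoters alone the shares were 28.2%, 16.5% and 17.5%. The motif was found in 30.3% of peakless promoters with a DPPA4 domain in a hairpin control arm and in 5 of the 59 (8.47%) without one. No shares of all promoters split in the same way are set beside these values. Whether this difference is particular to the peakless set is therefore not shown. GGGCGG, the GC box bound by SP1, was in 76.3%, 81.0% and 61.3% of peakless, shared and all promoters, and CCAAT, bound by NF-Y, in 36.4%, 38.3% and 36.0%. GCCATNTT, bound by YY1, was in 13%, 10.3% and 8.14%, and TGACGTCA, the CREB site, in 5.05%, 2.95% and 2.69%. For CACGTG, the E-box, the shares were 7.98%, 9.46% and 8.75%, for GCGCATGC, an NRF1 site, 6.65%, 6.36% and 4.25%, for the TATA box letters TATAAA 4.26%, 4.12% and 9.73%, and for TGANTCA 4.52%, 2.78% and 5.43%. None of these motifs contains another, although CACGTG and TGACGTCA share the letters ACGT, and a promoter could hold several.

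In the H1299 libraries that chose them, peakless promoters lay lower than shared ones in read density (reads per kb of the densest domain touching the promoter). Median density was 56.7 and 27.8 reads per kb at peakless promoters in the 2 DPPA2 libraries, against 83.1 and 34.0 at shared promoters, and 76.0 and 26.7 against 105 and 30 in the 2 DPPA4 N-terminal libraries. The rule used these libraries, so the values are a description. The members nearest the limit had weakest domains with a log2 fold over IgG of 1.00 (LTV1 and UCHL1) and 1.02 (LRRCC1), where the limit was 1. The promoters kept out by the weakest H661 peaks were NEIL2 (3.09-fold, DPPA2), ATP5F1B (3.12-fold, DPPA4 N-terminal) and SOCS4 (3.20-fold, DPPA4 N-terminal). The nearest parental peak of any of the 3 antibodies lay a median of 60200 bp from the TSS, within 5000 bp for 31 peakless promoters and beyond 100000 bp for 133.

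TBX18, a T-box transcription factor of the developing heart and urinary tract, had 131 and 55 reads per kb with DPPA2 and 206 and 35.2 with DPPA4 N-terminal in H1299. In the 8 H1299 libraries outside the rule it had a domain in all 8, at 26.7 to 195 reads per kb (median 78.0). In H661 control cells DPPA4 reached 21.1 (shDPPA4) and 13.8 reads per kb (shDPPA2+4), MTF2 reached 57.3 and 72.1, and EP300 had no domain. The H1299 libraries of DPPA4 N-terminal took part in the choice of TBX18, and densities were not scaled for depth between libraries. The H1299 and H661 values are therefore not compared.

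KIAA0232 led the set by rank, its lowest percentile among bound promoters being 80.4 over the 4 libraries of the rule. It had 110 and 46.7 reads per kb with DPPA2 and 122 and 46.2 with DPPA4 N-terminal, and a domain in 7 of the 8 other libraries at 27.1 to 138 reads per kb (median 77.4). In H661 the DPPA4 N-terminal antibody gave 13 reads over KIAA0232 against 2 IgG reads in parental cells, 181 against 1 in the shDPPA4 control and 95 against 5 in the shDPPA2+4 control. KIAA0232 thus had a domain in each H661 line while holding no parental peak.

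ABCB6, a mitochondrial porphyrin transporter of the ABC family, had 139 and 43.3 reads per kb with DPPA2 and 194 and 36.0 with DPPA4 N-terminal in H1299. Its domain was called in all 8 other libraries at 17.5 to 177 reads per kb (median 66.1). In H661 controls DPPA4 stood at 36.4 and 15.2 reads per kb over ABCB6, and none of RING1B, PCGF1, MTF2 or EP300 had a domain there.

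IL7, the cytokine that sustains lymphocyte precursors, had 123 and 58.8 reads per kb with DPPA2 and 101 and 52.7 with DPPA4 N-terminal. All 8 other H1299 libraries had a domain at IL7, at 28.3 to 121 reads per kb (median 65.6), and its lowest percentile over those 8 was 70.3, the highest of the 20 members touched in all 8. In H661 a DPPA4 domain of 14 reads against 1 IgG read was called in the shDPPA4 control and none in the shDPPA2+4 control. MTF2 lay over IL7 at 75 and 116 reads per kb in those lines.

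TGFA, a ligand of the EGF receptor, had 90.6 and 38.3 reads per kb with DPPA2 and 107 and 35.0 with DPPA4 N-terminal, and a domain in 7 of the 8 other libraries (13.6 to 125, median 47.4). In parental H661 it held EPIC2 domains of 10, 10 and 9 reads with DPPA2, DPPA4 N-terminal and ab154642, against 1, 2 and 2 IgG reads, and 97 reads against 3 in the shDPPA4 control. TGFA was 1 of 24 peakless promoters with parental domains of all 3 antibodies.

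The other leading promoters, in order of rank, were ATP5ME (an ATP synthase subunit) with its neighbour MYL5 (a myosin light chain), C12orf4, KCTD8 (an auxiliary subunit of GABA-B receptors), RFWD3 (a ubiquitin ligase of the DNA damage response), CMTR2 (an mRNA cap methyltransferase), STOM (stomatin), ZKSCAN1 (a zinc finger protein) and NUP43 (a nuclear pore subunit). ATP5ME and MYL5 shared 1 domain. Over the whole set 63 promoters had a window that overlapped another member's, and joining them left 344 loci.

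**Figure D1:**
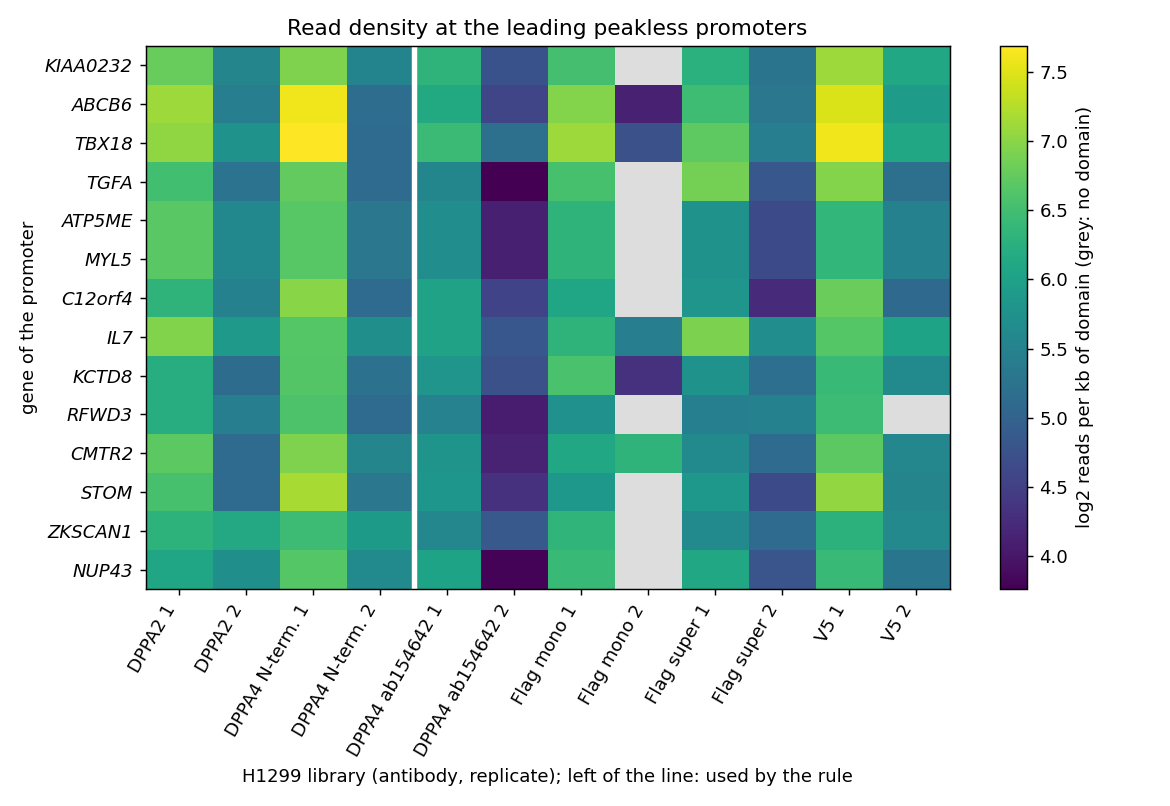
Read density (log2 reads per kb of domain, colour) at the highest ranked peakless promoters named in the text (vertical axis) in the 12 H1299 libraries (horizontal axis), with the 4 libraries of the rule left of the white line and grey where no domain was called. Grey cells fall almost wholly in the second Flag monoclonal library, the second V5 library lacking a domain at RFWD3.

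Of the 8 H1299 libraries that played no part in the selection, each had its own count of peakless promoters with a domain. The V5 antibody, against tagged DPPA4, touched 376 (100.0%, background over all promoters 65.2%) and 358 (95.2%, background 53.0%) in its 2 replicates, and ab154642 touched 362 (96.3%, background 56.7%) and 324 (86.2%, background 49.6%). Against tagged DPPA2, the second Flag antibody (Flag super) touched 374 (99.5%, background 58.9%) and 220 (58.5%, background 33.8%), and the Flag monoclonal touched 370 (98.4%, background 59.4%) and 27 (7.18%, background 5.27%). All 8 reached 20 peakless promoters and at least 6 reached 331; all 8 reached 693 shared promoters. Without the low Flag monoclonal library, replicate 2, the other 7 all reached 196 peakless promoters (52.1%) and 3615 shared promoters (78.4%).

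Peakless promoters were touched less often than shared promoters by 6.32 ± 7.73 percentage points (SD over 8 libraries), lower in 7 of 8 and equal in the first V5 library. An exact two-sided sign-flip permutation test over the 8 libraries gave p = 0.0156, adjusted over 3 tests to 0.0234. Median read density was lower by 0.416 ± 0.188 on the log2 scale and lower in 8 of 8 libraries (exact p = 0.00781, the smallest possible, adjusted 0.0234), from 70.4 against 107 reads per kb in the first V5 library to 17.6 against 22.3 in the second ab154642 library. Both differences were past the threshold over 8 libraries and not without the Flag monoclonal antibody, where they were −6.64 points (exact adjusted p = 0.0938 over 6 libraries) and −0.43 on the log2 scale (exact adjusted p = 0.0938). Neither was smaller in size there. The unadjusted sign-flip p of the density difference, 0.0312, was the smallest possible with 6 libraries. With both replicates of an antibody averaged only 4 values remained and no p below 0.125 was possible.

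Whether the antibodies to tagged DPPA2 and to DPPA4 saw the set alike was asked over the same 8 libraries. The 4 Flag libraries touched 65.9% ± 43.5 of peakless promoters and the 4 ab154642 and V5 libraries 94.4% ± 5.87 (SD, n = 4 each), a difference of −28.5 points (exact two-sided permutation p = 0.371, adjusted 0.371; the smallest p possible was 0.0286). The difference was smaller than the spread of the Flag libraries, and without the Flag monoclonal the Flag mean was 79.0%.

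In H661, the same promoters were also read in control-arm libraries the rule did not use. A DPPA4 domain lay at 313 peakless promoters in the shDPPA4 control (83.2%, background 71.7%) and at 295 in the shDPPA2+4 control (78.5%, background 67.7%), against 100.0% and 99.9% of shared promoters. Median DPPA4 density where a domain was called was 66.7 and 30.9 reads per kb at peakless promoters, against 137 and 67.8 at shared promoters. In parental cells EPIC2 found DPPA2 at 72 (19.1%, background 53.5%), DPPA4 N-terminal at 107 (28.5%, background 55.2%), ab154642 at 113 (30.1%, background 56.7%) and an antibody to the centre of DPPA4 at 10 (2.66%, background 22.5%). The first 3 of these libraries also gave the peaks of the rule and their shares are a description.

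RING1B, the Polycomb ubiquitin ligase, was found at most peakless promoters. It had a domain at 294 (78.2%, background 63.8%) in the shDPPA4 control and 269 (71.5%, background 60%) in the shDPPA2+4 control, against 98.1% and 95.4% of shared promoters, a mean difference of −21.9 points. With EPIC2 domains MTF2 came closest to the shared level, at 291 (77.4%, background 61.5%) and 295 (78.5%, background 62.1%) peakless promoters against 85.9% and 84.8% of shared promoters, a mean difference of −7.40 points. Its sign depended on the fold limit: with EPIC2 domains above a log2 fold of 2, MTF2 was 5.96 points more frequent at peakless than at shared promoters. The MTF2 libraries had the most reads in domains of the 4 proteins, 4759748 and 7049330. They also touched 25.1% and 27.4% of promoters unbound in both lines. The part of depth in the MTF2 shares was not tested.

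PCGF1 and EP300 showed the wider gaps with EPIC2 domains. With MACS2 peaks for the 4 proteins the order was another, and PCGF1 had the smallest difference at −8.95 points, against −12.9 for MTF2, −27.8 for RING1B and −48.7 for EP300. MACS2 called few PCGF1 peaks, which bounds a difference in points. In the shDPPA4 and shDPPA2+4 controls they lay at 1.33% and 0.532% of peakless promoters, 14.1% and 5.66% of shared promoters and 5.34% and 2.11% of all. PCGF1 had a domain at 56 peakless promoters (14.9%, background 25.7%) in the shDPPA4 control and 39 (10.4%, background 24.3%) in the shDPPA2+4 control, below the share over all promoters, against 57.2% and 53.4% of shared promoters (mean difference −42.6 points). EP300 had a domain at 187 (49.7%, background 50.1%) and 204 (54.3%, background 52.5%) peakless promoters, at the level of all promoters, against 90.8% and 92.4% of shared promoters (mean difference −39.6 points). With MACS2 peaks EP300 lay below that level, at 25.5% and 33.0% of peakless promoters against 34.4% and 42.5% of all. PCGF1 libraries held only 219059 and 221505 reads in domains, and 587921 and 929589 lay in EP300 domains, and the part of depth in these shares was not tested.

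**Figure D2:**
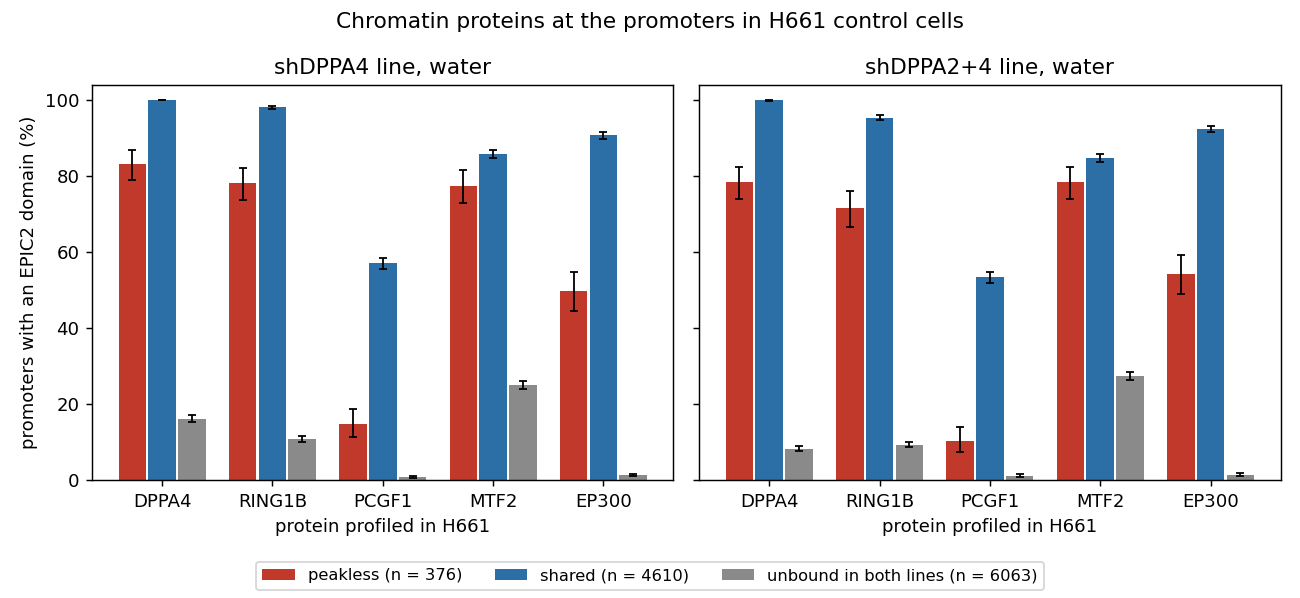
Percent of promoters with an EPIC2 domain (vertical axis, %) of DPPA4, RING1B, PCGF1, MTF2 and EP300 in the water arm of the shDPPA4 line (left) and the shDPPA2+4 line (right) for 376 peakless, 4610 shared and 6063 unbound promoters; bars are single libraries and error bars exact 95% binomial intervals. Peakless promoters stand between the other classes for each protein, with the narrowest gap to shared promoters for MTF2 (77.4% against 85.9%, and 78.5% against 84.8%).

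Among CpG-rich promoters alone the mean difference was −16.9 points for RING1B, against −21.9 with all CpG classes, and −41.1 against −42.6 for PCGF1. For MTF2 it was −7.54 against −7.40, and for EP300 −39.0 against −39.6. CpG content was not matched within the CpG-rich class, and its part in the gaps was not tested. In that class RING1B averaged 80.3% of peakless and 97.2% of shared promoters over the 2 control lines, and PCGF1 15% and 56.1%. MTF2 averaged 81.7% and 89.2%, and EP300 53.0% and 92.1%. At the 25 CpG-poor peakless promoters the averages were 22% (RING1B), 0 (PCGF1), 30% (MTF2) and 22% (EP300), against 84.6%, 39.4%, 59.0% and 80.9% of the 94 CpG-poor shared promoters. Where a domain was present its density was also lower at peakless promoters, with medians of 42.7 against 61.5 reads per kb for RING1B and 36.2 against 45.3 for EP300 in the shDPPA4 control.

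Combinations of the 4 proteins were counted over both control lines. All 4 in both control lines marked 5 peakless promoters (1.33%), against 28.4% of shared and 10.9% of all promoters. RING1B with EP300 in both lines marked 142 (37.8%), against 83.3% of shared and 42.3% of all, while RING1B in both lines with EP300 in neither marked 72 (19.1%), against 2.19% and 7.15%. RING1B and MTF2 in both lines, with neither EP300 nor PCGF1 in any, marked 55 (14.6%), against 0.803% and 4.61%. MTF2 alone marked 17 (4.52%), against 0.0651% of shared and 4.83% of all promoters, and none of the 4 proteins was found at 36 (9.57%), against 0.195% of shared and 25.4% of all promoters.

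The 5 promoters with all 4 proteins belonged to PEX2 (peroxisome assembly), RPS6KA2 (a ribosomal S6 kinase), NDUFB4 (a complex I subunit), RPS12 (a ribosomal protein) and BNIP2. RPS6KA2 had 72.1 and 27.8 reads per kb with DPPA2 and 86.9 and 30 with DPPA4 N-terminal in H1299. In the H661 controls DPPA4 stood at 192 and 114 reads per kb over RPS6KA2, RING1B at 118 and 91.1, MTF2 at 116 and 119, EP300 at 133 and 87.5, and PCGF1 at 63.3 and 30. RPS12 was weaker with DPPA2 in H1299 (28.0 and 35.0 reads per kb), and in H661 it had 106 and 36.2 reads per kb of DPPA4 and 76.8 and 75.8 of RING1B.

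The 36 promoters with none of the 4 proteins were led by ABCB6, IRF7 (a transcription factor of the interferon response), TOR4A (a torsin ATPase), SH3TC2 (a Schwann cell endocytic protein), ZNF732 and S100A2 (a calcium-binding S100 protein). IRF7 had 105 and 42.0 reads per kb with DPPA2 and 82.1 and 80.0 with DPPA4 N-terminal in H1299, the last from 8 reads against 2 of IgG, and 40.0 and 17.8 reads per kb of DPPA4 in the 2 H661 controls. S100A2 had 55.8 and 32.5 with DPPA2 and 77.4 and 40.0 with DPPA4 N-terminal, and a single H661 domain, DPPA4 in the shDPPA4 control, of 16 reads against none of IgG. Of the 36, 15 were CpG-poor, and 16 had DPPA4 in both control arms, 7 in one and 13 in neither.

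The set divided by whether DPPA4 was seen in the H661 control arms, in both at 291 promoters, in one at 26 and in neither at 59. EP300 followed this division, as it did over all promoters. It had a domain at 63.6% (shDPPA4) and 69.4% (shDPPA2+4) of the 291, at 7.69% of the 26 in each line and at 0 of the 59 in either line, where the exact 95% binomial interval reaches 6.06%. Over all promoters, EP300 was found in either line at 36 of the 5528 without a control DPPA4 domain (0.651%), and at 1.27% of the 393 of these that were CpG-rich. EP300 domains lay at 10012 (shDPPA4) and 10483 (shDPPA2+4) of all promoters, so nearly all of these had a control DPPA4 domain. The division of EP300 was thus not particular to the peakless set. The libraries of DPPA4 and EP300 were made in the same lines with the rabbit IgG control in common, and the part of that control was not tested.

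MTF2 did not follow it. Its domains lay at 78.0% and 79.0% of the 291 promoters, 69.2% and 73.1% of the 26, and 78.0% and 78.0% of the 59, 46 of which had MTF2 in both lines. RING1B lay between, at 85.9% and 77.7% of the 291, 69.2% and 65.4% of the 26 and 44.1% in each line of the 59, and PCGF1 at 18.2% and 12.0%, 7.69% and 15.4%, and 1.69% and 0. For MTF2, RING1B and PCGF1 no shares of all promoters split by control DPPA4 are set beside these values. Whether their patterns are particular to the peakless set is therefore not shown. Among CpG-rich members alone, MTF2 in both lines marked 75% of those with DPPA4 in both arms and 89.3% of those with none, and EP300 marked 54.1% and 0. In H1299 the second V5 library touched 95.2%, 96.2% and 94.9% of the 3 groups.

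**Figure D3:**
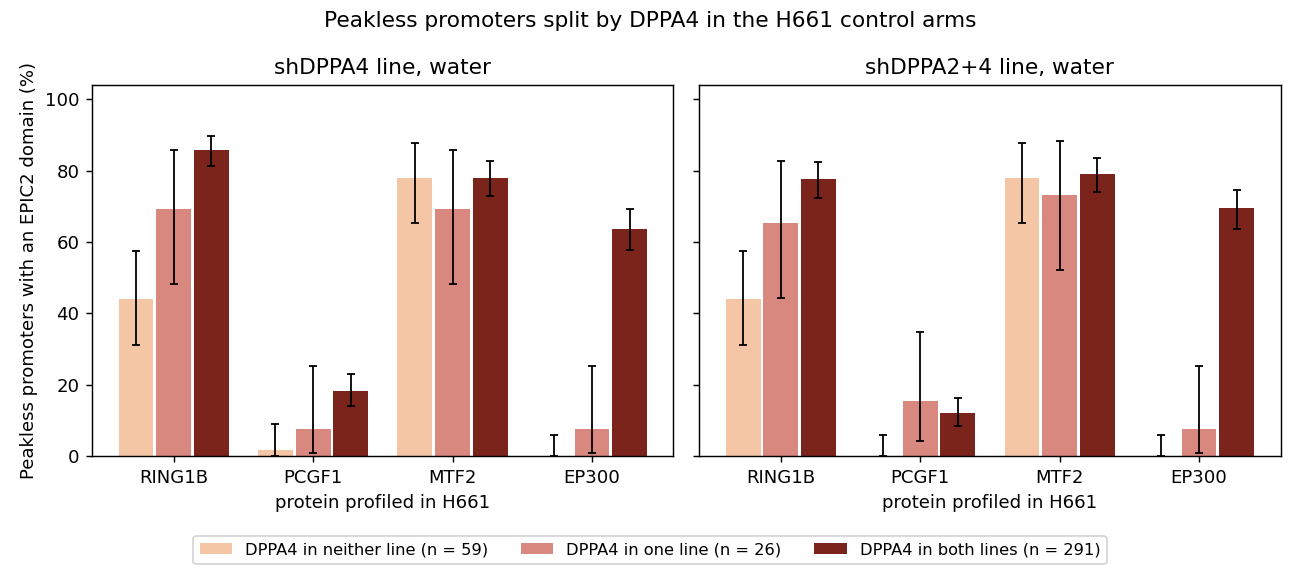
Percent of peakless promoters with an EPIC2 domain of RING1B, PCGF1, MTF2 or EP300 (vertical axis, %) in the shDPPA4 control (left) and shDPPA2+4 control (right), split by DPPA4 domains in neither (59), one (26) or both (291) control arms; error bars are exact 95% binomial intervals for single libraries. EP300 is at 0 where DPPA4 was in neither line and at 63.6% and 69.4% where it was in both, while MTF2 stays between 69.2% and 79.0%.

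Without doxycycline, 56 peakless promoters had no domain of any DPPA antibody in H661. The highest ranked were KCTD8, GPC6 (a glypican of the cell surface), SH3TC2, FABP5 (a fatty acid-binding protein), PSD3, HS3ST3A1 (a heparan sulfate sulfotransferase), ADAMTS3 (a procollagen protease), TDRD9 (a germ cell helicase of transposon silencing), TM4SF1 and ADRA1B (an adrenergic receptor). KCTD8 had 74.3 and 35.4 reads per kb with DPPA2 and 100 and 37.8 with DPPA4 N-terminal in H1299, a domain in all 8 other libraries (20.0 to 94.8, median 52.2), and in the H661 controls 55.5 and 86.2 of MTF2 with 20.0 and 26.7 of RING1B. GPC6 had 60.5 and 40.0 with DPPA2 and 122 and 46.7 with DPPA4 N-terminal, and in H661 controls only MTF2, at 89.4 and 111 reads per kb. ADAMTS3 had 50.0 and 42.5 with DPPA2 and 65.2 and 35.0 with DPPA4 N-terminal, again with MTF2 alone in the controls at 55.9 and 57.4.

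Of these, 13 had no domain in any of the 18 H661 lists. No shared promoter was so placed, but shared promoters were chosen by their parental H661 peaks and give no comparison here. No share of all promoters is set beside this count. The 13 were HORMAD1 (a protein of meiotic chromosome axes), TM4SF1, SH3TC2, KRT80 (a keratin), TDRD9, SPESP1 and NOX5 (with overlapping windows), the zinc finger genes ZNF491, ZNF43, ZNF254, ZNF582 and ZNF135, and the gene ENSG00000288614. TDRD9 had 55.4 and 28.0 reads per kb with DPPA2 and 90.0 and 26.0 with DPPA4 N-terminal in H1299 and a domain in 6 of the 8 other libraries (12.9 to 70, median 35.6). HORMAD1 had 23.6 and 20.0 with DPPA2 and 57.3 and 18.6 with DPPA4 N-terminal, with a domain in 7 of 8 (14.0 to 54.7, median 28.6). SH3TC2 was CpG-poor (observed over expected 0.145) and had 82.4 and 30 with DPPA2 and 130 and 35.0 with DPPA4 N-terminal. Copies of zinc finger genes are alike in sequence, so their values are uncertain.

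Doxycycline in the hairpin lines, which induces the hairpin against DPPA4 or those against both proteins, was followed by fewer DPPA4 domains at peakless promoters. The study reports that the DPPA4 hairpin alone also lowered DPPA2 protein. The share with a DPPA4 domain changed by −30.3 points at peakless and −14.9 at all promoters in the shDPPA4 line. In the shDPPA2+4 line it changed by −17.3 and −6.27 points. In the shDPPA4 line 199 had one with doxycycline (52.9%, background 56.8%), against 313 with water, while 98.7% and 100.0% of shared promoters did. In the shDPPA2+4 line the counts were 230 with doxycycline (61.2%, background 61.4%) and 295 with water, against 99.5% and 99.9% of shared promoters. Where both arms had a domain, unscaled DPPA4 density differed by a median of −1.13 on the log2 scale at peakless, −1.21 at shared and −1.20 at all promoters in the shDPPA4 line, and by 0.43, 0.30 and 0.33 in the shDPPA2+4 line. Reads in domains were 1481640 with doxycycline and 6708227 with water for DPPA4 in the shDPPA4 line, and 2436347 and 2699987 in the shDPPA2+4 line; the part of depth was not tested.

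With EPIC2 domains RING1B moved in different directions in the 2 lines, in each close to the change over all promoters. It was at 304 peakless promoters with doxycycline (80.9%, background 65.8%) and 294 with water in the shDPPA4 line. This was a difference of 2.66 points, against 2.00 points over all promoters and −1.65 at shared promoters. In the shDPPA2+4 line it was at 225 with doxycycline (59.8%, background 48.6%) and 269 with water, a difference of −11.7 points, against −11.4 over all promoters and −17.7 at shared promoters. With MACS2 peaks RING1B was lower with doxycycline in both lines. In the shDPPA4 line it was at 185 (49.2%, background 48.4%), against 245 with water (65.2%, background 58.7%). In the shDPPA2+4 line it was at 120 (31.9%, background 28.2%), against 246 with water (65.4%, background 57.3%). With 1 library per arm no difference could be tested.

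Gene groups were counted against the 6.15% of H1299-bound promoters that were peakless. Larger shares were held by cytosolic ribosomal proteins with 6 of 27 (22.2%), the Wnt pathway and the proteasome with 4 of 22 each (18.2%), translation initiation factors with 4 of 24 (16.7%), aminoacyl-tRNA synthetases with 2 of 12 (16.7%) and genes named ZNF with 18 of 174 (10.3%). The counts are small and were not tested. None of 20 bound acetyltransferase and deacetylase promoters, 33 replication-dependent histone promoters, 19 lung cancer drivers, 16 autophagy genes, 12 imprinted genes or 11 pluripotency genes was peakless. At a share of 6.15% groups this small can hold none, so these counts do not set the groups apart.

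The ribosomal genes were RPL8, RPL10, RPL31, RPS3, RPS12 and RPS14. RPS14 had 66.0 and 35.7 reads per kb with DPPA2 and 139 and 37.5 with DPPA4 N-terminal in H1299, and 145 and 38.9 of DPPA4 in the H661 controls. RPL8 had 69.2 and 26.7 with DPPA2 and 96.3 and 30 with DPPA4 N-terminal, and 94.3 and 20.0 of DPPA4 in those controls. Each of RPS14, RPL8, RPL31, RPL10 and RPS12 had a DPPA4 domain in both H661 control arms, as did 77.4% of all peakless promoters. RPS3 is not described. The proteasome members were PSMA2 and PSMB7 of the core and PSMD5 and PSMD12 of the regulatory particle or its assembly, and the initiation factors EIF2B1, EIF3F, EIF3L and EIF5.

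The Wnt members were WNT16 (a ligand), WLS (the carrier that exports ligands), RSPO3 (an enhancer of receptor level) and SFRP1 (a secreted inhibitor). WNT16 had 45.0 and 42.0 reads per kb with DPPA2 and 32.5 and 16.7 with DPPA4 N-terminal in H1299, and in the H661 controls 102 and 131 of MTF2 with 46.3 and 38.0 of RING1B. Developmental transcription factors gave 3 of 86 bound promoters, TBX18, HOXB9 and POU4F1. HOXB9, a homeobox gene of the trunk, had 41.0 and 25 with DPPA2 and 61.9 and 17.1 with DPPA4 N-terminal in H1299 and 67.1 and 30.6 of DPPA4 in H661 controls. POU4F1, a factor of sensory neurons, had 70.5 and 33.3 with DPPA2 and 56.5 and 30 with DPPA4 N-terminal, beside 68.3 and 128 of MTF2 in H661.

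Germline and cancer-testis genes gave 3 of 6 bound promoters, HORMAD1, TDRD9 and PRAME (a tumour antigen). PRAME had 29.0 and 26.7 reads per kb with DPPA2 and 56.4 and 33.3 with DPPA4 N-terminal in H1299, and unlike TDRD9 and HORMAD1 it had DPPA4 domains in the H661 controls, of 44.3 and 16.2. Cell cycle cyclins, kinases and inhibitors gave 4 of 36 bound promoters (11.1%), CCNI, CDK7, CDK14 and E2F6. Neuroendocrine markers gave CHGB (a granule protein) and UCHL1 (a neuronal deubiquitinase), 2 of 6. Polycomb subunits gave E2F6 and PCGF3, 2 of 20, both with DPPA4 in the H661 control arms, as had 77.4% of all peakless promoters. E2F6, a DNA-binding subunit of a variant complex, had 58.6 and 23 with DPPA2 and 105 and 15.6 with DPPA4 N-terminal in H1299 and 80.0 and 35.6 of DPPA4 in H661 controls.

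Peakless promoters were spread unevenly over the chromosomes. They made up 15.4% of H1299-bound promoters on chromosome 4 (35 of 227), 14.3% on X (6 of 42), 10.7% on 8 (29 of 271) and 10.6% on 9 (29 of 274), against 1.70% on 20 (3 of 176) and 0 of 41 on 21. Of the windows of 10 Mb, chromosome 9 from 120 to 130 Mb held 11 of 70 and from 130 to 140 Mb 11 of 75, chromosome 6 from 140 to 150 Mb 8 of 25, and chromosome 19 from 20 to 30 Mb 5 of 10, all 5 being zinc finger genes (ZNF85, ZNF493, ZNF43, ZNF91 and ZNF254). All members in these windows of chromosomes 6 and 9 had DPPA4 in a control arm, as did 84.3% of all peakless promoters and 72.3% of all promoters. In the chromosome 19 window 2 of the 5 had none.

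IgG read density at shared promoters also differed between the lines by chromosome. The difference of H1299 from H661 was 0.356 on the log2 scale on chromosome 8, 0.255 on 9, 0.174 on 4 and 0.209 on X, against −0.531 on 20. It was also 0.327 on 6, 0.25 on 15, 0.247 on 12 and 0.197 on 16. The peakless shares of these were 7.1%, 6.0%, 5.6% and 5.1%, beside 6.15% over all chromosomes. Over 23 chromosomes the peakless share and this difference had a Pearson r of 0.545 and a Spearman rho of 0.586, and r was 0.55 without chromosomes 13 and 14, which lay farthest out. The chromosomes come from the same libraries and the value is a description; the part of the background in the choice of the members was not tested.

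**Figure D4:**
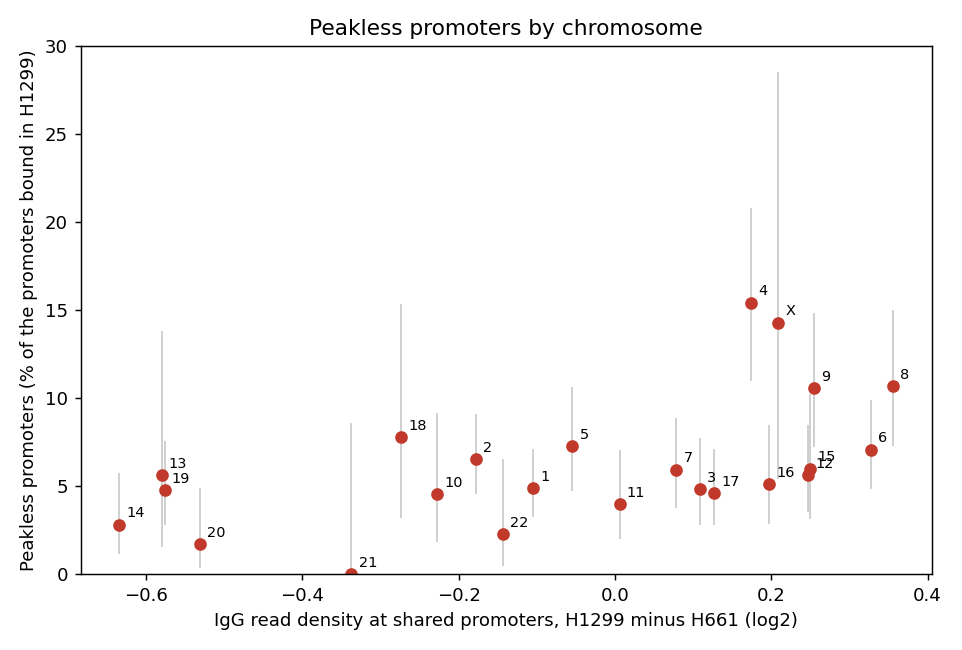
Peakless promoters in percent of the H1299-bound promoters of a chromosome (vertical axis, %, lines are exact 95% binomial intervals) against the IgG read density of H1299 minus H661 at shared promoters (horizontal axis, log2), 1 point per chromosome. Chromosomes 4 and X lie highest at 15.4% and 14.3%, and 20 and 21 lie lowest at 1.70% and 0.

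The set depended on how peaks were called and on the second replicate. With MACS2 peaks in place of EPIC2 domains in H1299 only 7 of the 376 remained, KIAA0232, KCTD8, AFDN (afadin, of cell junctions), IL7, MMP16 (a membrane metalloprotease), KARS1 (a tRNA synthetase) and TERF2IP (a telomere protein). With EPIC2 domains in place of MACS2 peaks in H661 there were 208, of which 195 were among the 376. Without replicate 2 of the H1299 libraries the rule gave 1701 promoters and without replicate 1 380, so the second replicates, with 398130 and 234029 reads in domains against 1839685 and 2879298 in the first, set most of the limit.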

How the data were processed

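CUT&RUN reads had been trimmed with Trim Galore (v0.6.6), aligned to hg38 with BWA (v0.7.13) and handled with SAMtools (v1.9) and Picard (v2.6.0), with deepTools (v3.5.0) and MACS2 also listed, all per the submitters' processing notes. A version of EPIC2 is stated for histone ChIP only, and the one used for CUT&RUN was not given in the sources used here. Both region lists of each library were called by the authors against IgG. EPIC2 tables hold, as deposited, counts of library and IgG reads per domain, a p-value and FDR, a score, and a log2 fold change over IgG. The narrowPeak tables hold, as deposited by the authors, an integer score, a fold enrichment ratio over IgG and −log10 p and q values. Duplicate rates and total read numbers were not used here.

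From the files, domains with FDR below 0.05 and log2 fold above 1 and peaks with q below 0.05 and fold above 2 were kept on autosomes and X, and any overlap with the promoter counted. Promoters came from the GENCODE release 44 annotation, with canonical transcripts for 19625 genes and the gene 5′ end for 345. No list of blacklisted regions was applied. Reads per kb were domain counts over domain length, within a library only. CpG content and motifs were read from hg38. Tests were exact permutation tests over libraries with Benjamini-Hochberg adjustment over 3 tests, checked on simulated data and against bedtools (2.31.1), with Python 3.11.15, NumPy 2.4.6, pandas 2.3.3, SciPy 1.17.1, pysam 0.24.0 and Matplotlib 3.10.9.

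Named promoters were the 15 with the highest lowest percentile of density over the 4 libraries of the rule, the 10 highest over the 8 other H1299 libraries among members touched in all, and up to 10 in each group of H661 state, 5 among CpG-poor members, those of the gene lists (every member of a list with 5 or fewer, the 4 highest of a longer one) and the 3 on either side of the limits. RPS3, SPESP1, NOX5, TERF2IP, ENSG00000288614 and zinc finger genes of chromosome 19 are named beyond this, chosen after their values were seen. Not every promoter that met these rules is described, and 1 is not reported here. Members and lists were chosen with earlier results of these data known. Replicate numbers are not stated to mark a shared culture. Alternatives covered fold and FDR limits, window, overlap, caller, replicates, antibodies and CpG window.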

Additional observations from a re-analysis of the deposited data

Results flagged for a closer look

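The second Flag monoclonal library of H1299 had a domain at 7.18% of peakless promoters, far below the other 7 libraries outside the rule, its gap to the nearest being 0.553 of the whole range. Of 9 groups of libraries examined this was the 1 found, and chance gives such a gap in about 1 in 20. The library had the fewest reads in domains, 93954, and touched 16.4% of shared promoters and 5.27% of all promoters; the part of depth was not tested.

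The share of peakless promoters with a RING1B EPIC2 domain differed in direction between the hairpin lines. It changed by 2.66 points with doxycycline over water in the shDPPA4 line and by −11.7 points in the shDPPA2+4 line. With MACS2 peaks the share was lower with doxycycline in both lines. With 1 library per arm the difference between the lines was not tested. Over all promoters the differences in EPIC2 domain share were 2.00 and −11.4 points. Reads in RING1B domains were 2547433 with doxycycline and 1574267 with water in the shDPPA4 line and 953566 and 882667 in the shDPPA2+4 line.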

How the results depend on the processing

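The number of peakless promoters was 356 to 389 under an FDR of 0.01, a window of 500 bp, an overlap of 25% or every deposited H661 peak, and 433 with no fold limit. It was 179 with a log2 fold above 2, 208 with EPIC2 domains for parental H661, 7 with MACS2 peaks for H1299, and, chosen after seeing the data, 59 where no DPPA4 domain in either control was also asked. Leaving out a replicate gave 380 to 1701.

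Differences of peakless minus shared promoters in percentage points moved as follows. With a log2 fold above 2 they were −15.8 for RING1B, −28.7 for PCGF1, −26.1 for EP300 and, reversed, 5.96 for MTF2. With no fold limit they were −46.2 for PCGF1 and −13.3 for MTF2, and with a 500 bp window −37.6 for PCGF1 and −36.1 for EP300. With EPIC2 domains for H661 they were −29.5 for RING1B, −43.8 for PCGF1 and −55.6 for EP300. With MACS2 peaks for H1299, over 7 promoters, they were −24.8 for RING1B, −54.4 for PCGF1, −34.5 for EP300 and, reversed, 15 for MTF2, 9.34 for the CpG-rich share and 0.908 for the domain share in other H1299 libraries. With MACS2 peaks for the 4 proteins they were −27.8 (RING1B), −8.95 (PCGF1), −12.9 (MTF2) and −48.7 (EP300). The CpG-rich share was −7.98 with a 1500 bp CpG window. Among CpG-rich promoters alone, added after seeing the data, RING1B was −16.9 and PCGF1 −41.1. For the 59 promoters without control DPPA4, also added then, the CpG-rich share was −23.4, RING1B −52.7, PCGF1 −54.4 and EP300 −91.6. The cause of these changes was not tested.

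Leaving out one replicate of the libraries of the rule gave differences of −20.3 to −14.8 (CpG-rich share), −26.0 to −21.9 (RING1B), −42.5 to −39.7 (PCGF1), −14.1 to −7.44 (MTF2) and −39.6 to −38.2 (EP300). In the other H1299 libraries, leaving out one replicate of either kind gave −19.1 to −1.23 points for the domain share, −0.58 to −0.26 on the log2 scale for density and −57.8 to 0.798 points for Flag against DPPA4 antibodies; the sign turned without replicate 2 of the tested libraries, among which is the low Flag monoclonal library. With 4 libraries no exact p below 0.125 was possible.

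In the other H1299 libraries the domain share difference was −6.32 with replicates averaged (exact adjusted p = 0.188) and −6.64 without the Flag monoclonal antibody (0.0938), and the density difference −0.42 (0.188) and −0.43 on the log2 scale (0.0938), each with fewer values than the test of 8. Permuting within replicate number, as a replicate block, left the difference of Flag from DPPA4 antibodies at −28.5 points with an exact permutation p = 0.222, where the smallest possible was 0.0556; the numbers are not stated to pair libraries. Single H661 libraries, low depth in the second H1299 replicates and in PCGF1 and a rule that turns on the caller limit all of these values.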

Other observations

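A CpG-poor peakless promoter on chromosome 6 (TSS at 31622774), of the gene ENSG00000291302, had high DPPA4 density in both lines and no parental H661 domain. In H661 the DPPA4 N-terminal antibody gave ENSG00000291302 418 reads per kb in the shDPPA4 control and 192 in the shDPPA2+4 control, and 158 and 208 with doxycycline. In H1299 it had 350 and 30 with DPPA4 N-terminal and 270 and 56.2 with DPPA2. IgG reads over the domains of ENSG00000291302 were 33 and 22 in those H661 controls.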
